A study of Homo sapiens with 9 samples.

Results

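The genes of fatty acid synthesis, triglyceride assembly and lipid droplets were read out in HepG2 cells, an established human liver cancer line, after knockdown of TRIB3 with 2 short hairpin RNAs. The set held 43 genes of the 24204 gene symbols in the deposited table, and its members were listed by symbol for their known function, with earlier results of these data known. They cover enzymes that make and modify fatty acids, enzymes that build triglyceride, proteins that coat or empty the droplet, and the protein that loads lipid onto secreted lipoproteins. The data comprised 9 RNA-seq libraries in 3 groups of 3: cells infected with lentivirus carrying a control hairpin (shCtrl), a first hairpin against TRIB3 (shTRIB3-1) or a second one (shTRIB3-2). All groups were infected for 48 h and selected with puromycin for 48 h. The labels give high-glucose DMEM with fetal bovine serum for each of them, whereas the study's methods describe RNA from glutamine-deprived cells. That methods passage also covers the study's glutamine deprivation time course. The paper's discussion describes altered repair gene expression after TRIB3 depletion in cells not deprived of glutamine. The medium at harvest is therefore uncertain. All libraries came from 1 line, and the labels do not say whether replicates came from separate cultures, so p-values measure the spread between these libraries, which may be technical.

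Hepatocytes build fatty acids from citrate that leaves the mitochondrion, lengthen and desaturate them, couple them to coenzyme A and esterify them to glycerol. The triglyceride is stored in droplets coated by perilipins and CIDE proteins, is released again by lipases, or is loaded onto apolipoprotein B and secreted as very low density lipoprotein. TRIB3 is a pseudokinase of the Tribbles family that is induced by shortage of amino acids and by endoplasmic reticulum stress.

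The labels were checked first on TRIB3 itself. Its level in FPKM, which counts fragments relative to gene length and library size, was 66.8 ± 1.08 in shCtrl (SD, n = 3 in each group), 33.6 ± 0.76 after shTRIB3-1 and 20.5 ± 0.171 after shTRIB3-2. It was thus lower with each hairpin, by 0.99 on the log2 scale with shTRIB3-1 and 1.70 with shTRIB3-2, and lower with shTRIB3-2 than with shTRIB3-1. The 21-base target sites are shown because the report compares the hairpins with each other. Both lie on the plus strand within coding sequence of TRIB3 on chromosome 20 (GRCh38), the first at chr20:388072-388092 in exon 2 and the second at chr20:391473-391493 in exon 3 of the 4 exons of ENST00000217233.9. Neither had an exact match in transcripts of any other gene among 252835 GENCODE transcripts.
shTRIB3-1 target: tggatgacaacttagataccg
shTRIB3-2 target: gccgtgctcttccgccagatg

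Depth was even, at 34206726 to 36311029 fragments per library. All 8 hepatocyte markers on a fixed list were expressed, with summed levels of 8330 to 8990 FPKM in the control group, 8560 to 9000 after shTRIB3-1 and 10800 to 11100 after shTRIB3-2. ALB made up most of each sum, and single markers moved apart. On the log2 scale against shCtrl, TTR changed by 1.08 with shTRIB3-1 and 1.71 with shTRIB3-2, and APOA1 by 0.63 and 0.70. In the same order FGB changed by -0.92 and -0.47, APOB by -0.31 and -0.10, and SERPINA1 by -0.44 and -0.04. ALB was at -0.04 and 0.35, TF at -0.12 and 0.13, and AFP at -0.02 and 0.68. No adipocyte, fibroblast or endothelial marker measured reached 1 FPKM in any library, and the adipocyte sum was 0.19 to 0.305 FPKM in the control group, 0.26 to 0.397 after shTRIB3-1 and 0.268 to 0.482 after shTRIB3-2. The macrophage and leukocyte list summed to 1060 to 1180 FPKM in the control group, 532 to 559 after shTRIB3-1 and 611 to 650 after shTRIB3-2, nearly all of it LYZ, which encodes lysozyme, while the defining leukocyte gene PTPRC was at 0 to 0.00448 FPKM. On the same list CD68 averaged 31.84 FPKM in shCtrl, 37.65 after shTRIB3-1 and 33.53 after shTRIB3-2, so it did not fall with LYZ. CD14 averaged 1.1, 0.259 and 0.321 FPKM in the same order. The part of these marker shifts in the results was not tested. In bulk RNA, fewer cells that express a gene and less of its RNA per cell cannot be told apart.

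Changes of more than 1 on the log2 scale with both hairpins were found upwards for the droplet proteins CIDEC, CIDEB and PLIN2, for MTTP, for the synthetases ACSS2 and ACSL5 and for the elongase ELOVL1, and downwards for the acyltransferase AGPAT3. Smaller changes went both ways within families, such as ACSL4, which fell beside its rising paralogues. The core synthesis enzymes ACLY, ACACA and FASN changed by 0.25 or less on the log2 scale. Differences are given as log2 fold changes of FPKM + 0.1 with limma's adjusted p, and a member was called where the adjusted p was under 0.05 and the change was more than 1 on the log2 scale in either direction. Of the 43 members, 35 passed the filter on low values (at least 1 FPKM in at least 3 libraries), 34 of them in every library and ACACB through shCtrl alone. Positions are given for called members, from GENCODE v44 on GRCh38.

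With shTRIB3-1, 8 members (22.9% of those tested) were called higher and 2 (5.71%) lower, against 5.39% and 6.1% of all 11265 tested genes. The 2 lower ones were AGPAT3 and ACACB, and ACACB, which passed the filter through shCtrl alone, had to be lower to be counted, so it lends nothing to that share. With shTRIB3-2, 7 members (20%) were called higher and 1 (2.86%) lower, against 6.06% and 6.27% of all tested genes. The same 7 members were called higher with both hairpins, namely ACSS2, ELOVL1, ACSL5, PLIN2, CIDEB, CIDEC and MTTP, and AGPAT3 was called lower with both, which is 20% and 2.86% of members against 4.32% and 4.74% of all tested genes. The 3 shCtrl libraries served as controls for each hairpin, so the counts with the 2 hairpins are not independent of each other. At an adjusted p under 0.05 whatever the fold, 20 members (57.1%) were higher and 9 (25.7%) lower with shTRIB3-1, where 32.9% and 41.5% of all tested genes were. With shTRIB3-2 the counts were 26 (74.3%) and 8 (22.9%), against 35.4% and 40.5%. The median change over tested members was 0.18 with shTRIB3-1 and 0.37 with shTRIB3-2, and the median over all tested genes was -0.056 and -0.035. The members higher at this looser threshold therefore held a larger share than among all genes, and the lower ones a smaller share, as a description without a test.

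**Figure D1:**
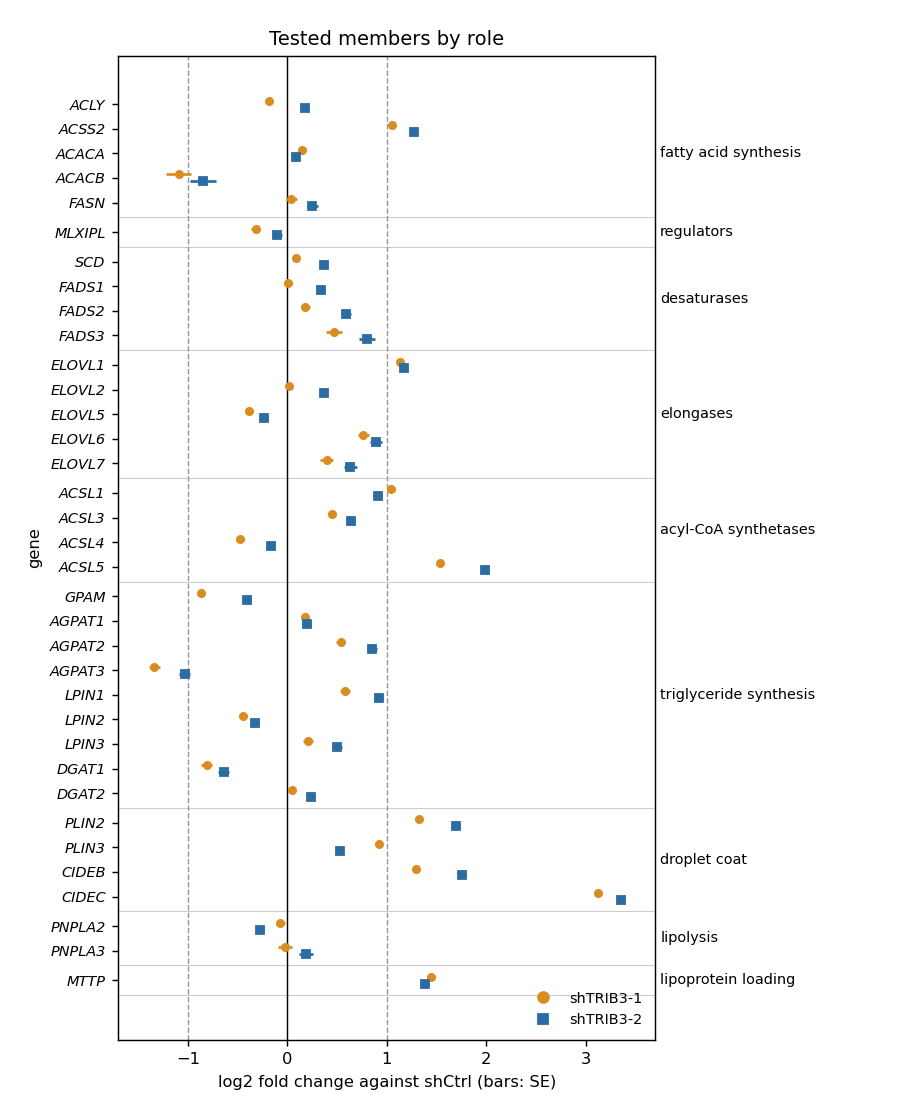
Log2 fold change against shCtrl (x axis, FPKM + 0.1, bars are the standard error of the fit) of the 35 tested members (y axis, grouped by role), with circles for shTRIB3-1 and squares for shTRIB3-2, and dashed lines at -1 and 1. CIDEC lies farthest to the right at 3.13 and 3.36, and AGPAT3 farthest to the left at -1.34 with shTRIB3-1 and -1.03 with shTRIB3-2.

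Among the enzymes that supply and build fatty acids, only the acetate branch rose by more than 1. ACSS2, the cytosolic synthetase that turns acetate into acetyl-CoA (chr20:34872146-34927962, plus strand), stood at 35.6, 35.2 and 33.6 FPKM in the shCtrl libraries, 70.8, 70.9 and 75.7 in those of shTRIB3-1 and 87.9, 82.8 and 82.2 in those of shTRIB3-2. The 3 groups did not overlap, with shTRIB3-2 highest. Its mean was 2.08 times the control mean with shTRIB3-1 (log2 fold change 1.06 ± 0.039 (SE), adjusted p = 2.34e-10) and 2.42 times with shTRIB3-2 (1.27 ± 0.039, adjusted p = 3.87e-11). ACLY, which cleaves citrate to acetyl-CoA, was measured at 111, 108 and 108 FPKM in the shCtrl libraries, 99.2, 89.3 and 98.2 in those of shTRIB3-1 and 126, 122 and 121 in those of shTRIB3-2. The shTRIB3-1 libraries lay below and the shTRIB3-2 libraries above the control libraries, so that ACLY fell slightly with the first hairpin (-0.19 ± 0.039, adjusted p = 0.000896) and rose slightly with the second (0.17 ± 0.039, adjusted p = 0.00158). ACLY was the only tested member that passed in opposite directions with the 2 hairpins.

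ACACA and ACACB encode acetyl-CoA carboxylases, which make the malonyl-CoA used for synthesis and, in the ACACB product at the mitochondrial surface, for restraint of fatty acid import. ACACB (chr12:109116587-109268226, plus strand) stood at 1.58, 1.58 and 1.45 FPKM in the shCtrl libraries, 0.716, 0.611 and 0.676 in those of shTRIB3-1 and 0.944, 0.698 and 0.804 in those of shTRIB3-2. Every knockdown library was below every control library, while the hairpin groups overlapped. The change was -1.09 ± 0.13 with shTRIB3-1 (adjusted p = 7.98e-06) against -0.85 ± 0.13 for shTRIB3-2 (adjusted p = 7.02e-05), values that the filter itself favoured, as only the control libraries reached 1 FPKM. With a pseudocount of 1 in place of 0.1 the change with shTRIB3-1 was -0.60 and no longer called. ACACA stayed near its control level of 16.9 FPKM, with changes of 0.15 and 0.09 (adjusted p of 0.00241 and 0.0432), the latter failing the threshold in 6 of 9 fits that each left out 1 library (adjusted p 0.0583 to 0.127), those without shCtrl replicate 2 or 3, shTRIB3-1 replicate 3 or any of the shTRIB3-2 replicates. After rescaling to TPM, which sets the same total for every library, neither ACACA change passed (0.09 and 0.06, adjusted p = 0.055 and 0.185). By FPKM, ACACA made up 91.7% of both carboxylases in the controls, 96.6% after shTRIB3-1 and 95.7% after shTRIB3-2.

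FASN, the multifunctional synthase that makes palmitate, was among the most abundant members at 144, 139 and 147 FPKM in the shCtrl libraries, 155, 134 and 154 in those of shTRIB3-1 and 179, 165 and 169 in those of shTRIB3-2. The shTRIB3-1 libraries straddled the controls and the shTRIB3-2 libraries lay above both groups. FASN rose with shTRIB3-2 by 0.25 (adjusted p = 0.000845), and with shTRIB3-1 its change of 0.04 ± 0.053 did not pass (adjusted p = 0.493). Without shTRIB3-1 replicate 2, the lowest library, the shTRIB3-1 change was 0.11 with an adjusted p of 0.031. ME1, the malic enzyme that yields NADPH, had 0 to 1 fragments in each library. MLXIPL encodes ChREBP, the carbohydrate-responsive activator of lipogenic genes, and fell with shTRIB3-1 (-0.32, adjusted p = 8.25e-05), while the change of -0.11 with shTRIB3-2 did not pass (adjusted p = 0.0664) except, among the fits that left out a library, without shCtrl replicate 2 (-0.13, adjusted p = 0.0498) or shTRIB3-1 replicate 2 (-0.11, adjusted p = 0.0105). The MLXIPL change with shTRIB3-2 also passed on the TPM scale (-0.13, adjusted p = 0.032) and in a fit on recovered fragments with voom (-0.11, adjusted p = 0.0204). THRSP, a small lipogenic regulator, had 0 to 3 fragments per library.

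All 4 tested desaturases rose with shTRIB3-2 and 3 of them with shTRIB3-1 at an adjusted p under 0.05, where 35.4% and 32.9% of all tested genes did. SCD, the stearoyl-CoA desaturase that makes monounsaturated fatty acids, was the most abundant tested member at 763, 759 and 773 FPKM in the shCtrl libraries, 823, 788 and 831 in those of shTRIB3-1 and 999.9, 999.6 and 974 in those of shTRIB3-2. The groups did not overlap. SCD rose by 0.37 ± 0.033 with shTRIB3-2 (adjusted p = 5.11e-07) and by 0.09 ± 0.033 with shTRIB3-1 (adjusted p = 0.0278), which failed the threshold without shCtrl replicate 2 or without shTRIB3-1 replicate 1 or 3 (0.07 to 0.08, adjusted p 0.0823 to 0.11) and on the TPM scale (0.03, adjusted p = 0.359). The delta-5 and delta-6 desaturases FADS1 and FADS2 make polyunsaturated fatty acids. FADS1 rose by 0.34 with shTRIB3-2 (adjusted p = 5.57e-06) and was at 0.01 with shTRIB3-1 (adjusted p = 0.805). FADS2 rose by 0.18 and 0.59 (adjusted p = 0.00302 and 1.16e-07). FADS3, a family member at 4.58 FPKM in shCtrl, rose by 0.47 and 0.80 (adjusted p = 0.000221 and 1.97e-06). FADS1 and FADS2 are neighbours on chromosome 11 that overlap in antisense over a small part of their exons, 4.8% of the exon bases of FADS1 and 4.6% of those of FADS2. SCD5 had at most 1 fragment in a library.

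The elongases, which add carbon pairs to long acyl chains, divided by member. ELOVL1, which extends saturated and monounsaturated very long chains (chr1:43363398-43368074, minus strand), stood at 69.8, 65.5 and 65.9 FPKM in the shCtrl libraries, 152, 149 and 141 in those of shTRIB3-1 and 149, 154 and 152 in those of shTRIB3-2. All knockdown libraries lay above all control libraries, and the hairpin groups overlapped. Its mean was 2.2 times the control mean with shTRIB3-1 (1.13 ± 0.036, adjusted p = 6.89e-11) and 2.26 times with shTRIB3-2 (1.18 ± 0.036, adjusted p = 3.86e-11). ELOVL6, which extends palmitate to stearate, rose by 0.76 and 0.89 (adjusted p = 1.11e-07 and 2.29e-08). ELOVL7 rose by 0.39 and 0.63 (adjusted p = 0.00013 and 1.84e-06). ELOVL2 and ELOVL5 both extend polyunsaturated chains, but ELOVL5 fell by 0.38 and 0.23 log2 units (adjusted p = 3.02e-07 with shTRIB3-1 and 2.74e-05 with shTRIB3-2), whereas ELOVL2 rose by 0.36 with shTRIB3-2 (adjusted p = 4.06e-07) and was at 0.02 with shTRIB3-1 (adjusted p = 0.606). ELOVL4 was near the floor, with 0 fragments in all 3 controls, 3 to 6 after shTRIB3-1 and 1 to 10 after shTRIB3-2.

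Of the 4 long-chain acyl-CoA synthetases, which activate fatty acids for esterification or oxidation, ACSL1, ACSL3 and ACSL5 rose with both hairpins and ACSL4 fell with both. ACSL5 (chr10:112374116-112428379, plus strand) stood at 65.6, 64.8 and 64 FPKM in the shCtrl libraries, 188, 191 and 186 in those of shTRIB3-1 and 259, 259.6 and 255 in those of shTRIB3-2. No group overlapped another, and the spread within a group was small against the gaps between groups. ACSL5 was 2.9 times the control mean with shTRIB3-1 (1.54 ± 0.026, adjusted p = 8.03e-13) and 3.98 times with shTRIB3-2 (1.99 ± 0.026, adjusted p = 7.73e-14). ACSL1, the main synthetase of hepatocytes (chr4:184755595-184826818, minus strand), was at 24.8, 24.8 and 24.9 FPKM in the shCtrl libraries, 51.4, 50.1 and 52.5 in those of shTRIB3-1 and 47, 46.8 and 46.8 in those of shTRIB3-2. Its order differed from that of ACSL5, since the shTRIB3-1 libraries were the highest. ACSL1 rose by 1.05 ± 0.029 with shTRIB3-1 (adjusted p = 2.43e-11) against 0.91 ± 0.029 for shTRIB3-2 (adjusted p = 4.9e-11), so it was called with the first hairpin alone, and on the TPM scale the first change was 0.99 and not called either. ACSL4, which prefers arachidonate, was at 133, 136 and 144 FPKM in the shCtrl libraries, 97.6, 96 and 104 in those of shTRIB3-1 and 124, 121 and 124 in those of shTRIB3-2. The control libraries were the highest and the shTRIB3-1 libraries the lowest, with falls of 0.47 (adjusted p = 3.02e-07) and 0.17 (adjusted p = 0.00206) on the log2 scale. ACSL3, which works at nascent droplets, rose by 0.45 and 0.64 (adjusted p = 1.47e-07 and 4.33e-09).

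**Figure D2:**
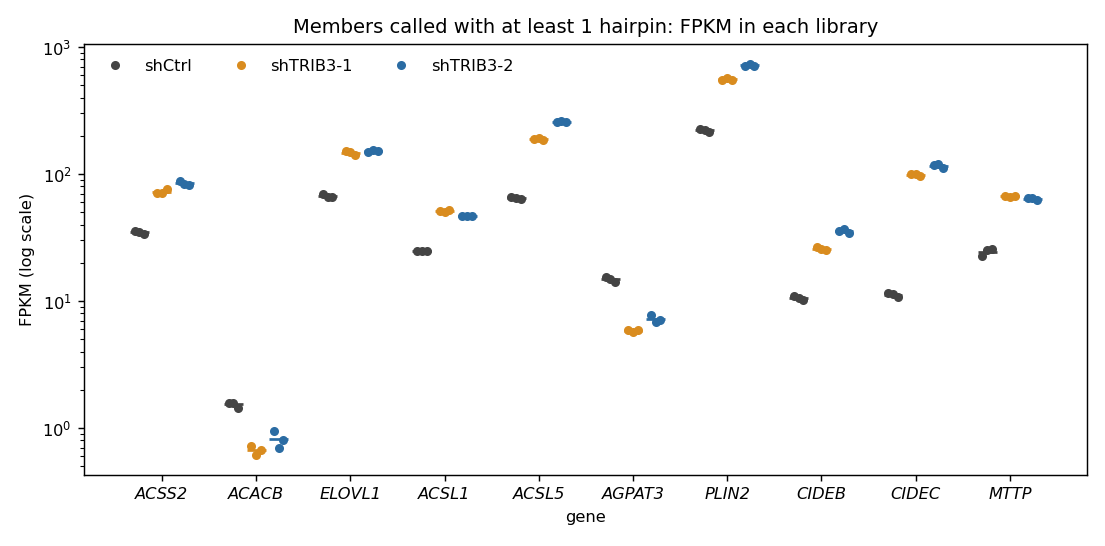
FPKM on a log axis (y) of the 10 members called with at least 1 hairpin (x) in each library, 3 points per group in shCtrl (grey), shTRIB3-1 (orange) and shTRIB3-2 (blue), with a short line at the group mean. In 8 of the genes all knockdown points lie above the control points, and in ACACB and AGPAT3 all lie below. The genes were picked by their calls, which favours such separation, and ACACB passed the filter through shCtrl alone.

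Triglyceride assembly had members moving in both directions. Of its 9 genes 4 rose and 4 fell with shTRIB3-1, and 5 rose and 4 fell with shTRIB3-2, at an adjusted p under 0.05. Among all tested genes 32.9% were higher and 41.5% lower with shTRIB3-1, and 35.4% and 40.5% with shTRIB3-2. Movement in both directions is thus not particular to these genes. GPAM, the mitochondrial acyltransferase of the first step, averaged 93.3 FPKM in the controls, 51.1 after shTRIB3-1 and 70.5 after shTRIB3-2 (3 libraries each). It fell by 0.87 and 0.40 log2 units (adjusted p = 3.15e-10 with shTRIB3-1 and 2.58e-07 with shTRIB3-2). The AGPAT enzymes of the next step make phosphatidic acid. AGPAT3 (chr21:43865223-43987592, plus strand) stood at 15.6, 14.9 and 14 FPKM in the shCtrl libraries, 5.89, 5.66 and 5.86 in those of shTRIB3-1 and 7.71, 6.78 and 7.1 in those of shTRIB3-2. The groups did not overlap and the controls were the highest. AGPAT3 was 0.391 times the control mean with shTRIB3-1 (-1.34 ± 0.056, adjusted p = 7.69e-10) and 0.485 times with shTRIB3-2 (-1.03 ± 0.056, adjusted p = 6.16e-09). The second of these lay close to the fold threshold and was not called with a pseudocount of 1 (-0.95), after median centring (-0.98), without shCtrl replicate 1 (-1.0 after rounding) or without shTRIB3-2 replicate 2 (-0.99).

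AGPAT2, the paralogue whose loss causes congenital lipodystrophy, rose by 0.54 and 0.85 (adjusted p = 4.81e-07 and 5.82e-09). AGPAT1 rose by 0.18 and 0.19 (adjusted p = 0.00186 and 0.00102). EGFL8 and its readthrough, on the other strand, cover 30.3% of the AGPAT1 exon bases. Lipins remove the phosphate to give diacylglycerol, and here LPIN1 rose while LPIN2 fell. LPIN1 changed by 0.58 and 0.92 (adjusted p = 2.22e-07 and 2.81e-09), LPIN3 by 0.21 and 0.50 (adjusted p = 0.00281 and 1.73e-06), and LPIN2 by -0.44 and -0.32 (adjusted p = 6.42e-07 and 1.06e-05). For the last step, DGAT1 of the endoplasmic reticulum fell by 0.81 and 0.64 log2 units (adjusted p = 7.96e-08 with shTRIB3-1 and 6.2e-07 with shTRIB3-2). DGAT2, which also acts at the droplet surface, rose by 0.24 with shTRIB3-2 (adjusted p = 7.79e-05) and was at 0.04 with shTRIB3-1 (adjusted p = 0.305).

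All 4 tested genes of the droplet coat rose with both hairpins, and CIDEC had the largest change of the 35 tested members. Among all tested genes 32.9% were higher with shTRIB3-1 and 35.4% with shTRIB3-2 at an adjusted p under 0.05. CIDEC, which sits at droplet contact sites and drives their fusion into larger droplets (chr3:9866711-9880255, minus strand), stood at 11.6, 11.3 and 10.8 FPKM in the shCtrl libraries, 99.5, 99.5 and 97.2 in those of shTRIB3-1 and 118, 119 and 111 in those of shTRIB3-2. The highest control library was far below the lowest knockdown library, and the shTRIB3-2 libraries were above the shTRIB3-1 libraries. CIDEC was 8.79 times the control mean with shTRIB3-1 (3.13 ± 0.036, adjusted p = 2.48e-14) and 10.3 times with shTRIB3-2 (3.36 ± 0.036, adjusted p = 1.07e-14). PLIN2, the main perilipin of hepatocyte droplets (chr9:19108375-19149290, minus strand), was also among the most abundant members, at 228, 222 and 215 FPKM in the shCtrl libraries, 547, 574 and 548 in those of shTRIB3-1 and 707, 741 and 715 in those of shTRIB3-2. Its groups did not overlap. PLIN2 rose 2.51-fold with shTRIB3-1 (1.33 ± 0.035, adjusted p = 1.6e-11) and 3.25-fold with shTRIB3-2 (1.70 ± 0.035, adjusted p = 1.44e-12).

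CIDEB, the CIDE protein of liver that acts in droplet fusion and lipoprotein lipidation (chr14:24305187-24311430, minus strand), stood at 10.9, 10.5 and 10.2 FPKM in the shCtrl libraries, 26.7, 25.7 and 25.1 in those of shTRIB3-1 and 35.6, 36.9 and 34.5 in those of shTRIB3-2. The groups did not overlap, and the rise was 1.29 ± 0.041 with shTRIB3-1 (adjusted p = 6.54e-11) against 1.75 ± 0.041 for shTRIB3-2 (adjusted p = 4.15e-12). All exon bases of CIDEB (100%) are overlapped by genes of the opposite strand, NOP9 and LTB4R2. The study's methods call the libraries strand-specific, the labels name another kit, and no source used here says whether counting used the strand. How reads in the shared bases were assigned is therefore unknown, and the CIDEB values may hold reads of these genes or lack reads of its own. NOP9 was at 0.03 with shTRIB3-1 and -0.14 with shTRIB3-2 (adjusted p of 0.527 and 0.00484). LTB4R2 was at -0.09 and 0.43 (adjusted p of 0.573 and 0.0161), so both moved less than CIDEB. The part of the overlap in the CIDEB change was not tested. PLIN3, a perilipin that moves between cytosol and droplets, rose by 0.92 and 0.53 (adjusted p = 8.8e-11 and 8.81e-09) and was called with shTRIB3-1 (1.00) only after median centring. PLIN4 and PLIN5, the latter linked to mitochondria, were below the filter, with 90 to 116 and 42 to 55 fragments in shCtrl. PLIN4 had 24 to 43 fragments in shTRIB3-1 and 25 to 47 in shTRIB3-2, and PLIN5 had 9 to 12 and 9 to 26. In a fit without the filter PLIN4 changed by -1.03 and -0.98 (adjusted p = 0.00198 and 0.00253) and PLIN5 by -1.5 and -1.0 (adjusted p = 0.00117 and 0.0111), the opposite direction to the abundant perilipins.

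Neither tested lipase changed with shTRIB3-1 at the threshold. PNPLA2, adipose triglyceride lipase, fell by 0.28 on the log2 scale with shTRIB3-2 (adjusted p = 0.000109) and was at -0.07 with shTRIB3-1 (adjusted p = 0.176). PNPLA3 was at -0.02 with shTRIB3-1 (adjusted p = 0.776) and rose by 0.19 with shTRIB3-2 (adjusted p = 0.0235), a change that failed without shCtrl replicate 1 or shTRIB3-2 replicate 1 (0.13 to 0.14, adjusted p 0.09 to 0.107). LIPE, hormone-sensitive lipase, had at most 1 fragment in a library, and G0S2, the inhibitor of PNPLA2, had 1 to 9. MTTP, the transfer protein that loads triglyceride onto apolipoprotein B (chr4:99564081-99623997, plus strand), stood at 22.6, 25 and 25.9 FPKM in the shCtrl libraries, 67.2, 65.8 and 67.4 in those of shTRIB3-1 and 64.2, 65 and 63 in those of shTRIB3-2. All knockdown libraries lay above the controls, and MTTP was 2.73 times the control mean with shTRIB3-1 (1.44 ± 0.044, adjusted p = 5.53e-11) and 2.61 times with shTRIB3-2 (1.39 ± 0.044, adjusted p = 5.71e-11). APOB itself, its acceptor, was at -0.31 with shTRIB3-1 and -0.10 with shTRIB3-2 (adjusted p of 3.21e-06 and 0.0186).

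Because paralogues moved apart, their make-up was described within 7 families on the FPKM scale, families being chosen after the values had been seen and given without a test. The summed level of the acyl-CoA synthetases went from 274 ± 4.45 FPKM in the controls to 402 ± 5.2 after shTRIB3-1 and 500.1 ± 3.89 after shTRIB3-2 (SD over 3 libraries). ACSL4 was 50.4% of that sum in shCtrl and 24.7% and 24.6% with the hairpins, while ACSL5 went from 23.7% to 46.9% and 51.6%, so the leading synthetase transcript changed from ACSL4 to ACSL5. Among elongases ELOVL1 and ELOVL5 were nearly level by FPKM in shCtrl (34.9% and 31.4%) and were 54.8% and 17.2% in shTRIB3-1 and 51.5% and 17.5% in shTRIB3-2. Shares between genes depend on the lengths behind FPKM, here 1695 and 3717 bases, or 67.6% and 97.5% of the exon bases. In shCtrl replicate 1 ELOVL1 had 4232 fragments and ELOVL5 8024. PLIN2 was 78.4% of the perilipin sum in shCtrl, 83% in shTRIB3-1 and 89.2% in shTRIB3-2.

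The lipin sum changed little with shTRIB3-1, from 46.3 ± 0.984 to 46.7 ± 1.22 FPKM, and was 55.4 ± 1.56 with shTRIB3-2 (SD over 3 libraries). Within it LPIN2 was 54.9%, 40.0% and 36.7%, and LPIN1 was 24.4%, 36.2% and 38.6%. AGPAT3 was 18.8% of the summed AGPAT1, AGPAT2 and AGPAT3 in shCtrl and 6.87% and 7.7% with the hairpins. AGPAT5, not a member, was outside this sum. It was at 10.7 to 11.2 FPKM in shCtrl, 15.6 to 16.1 after shTRIB3-1 and 11.2 to 11.9 after shTRIB3-2. The DGAT sum was 44.3 ± 1.43, 39.8 ± 1.05 and 45.4 ± 1.42 FPKM, with DGAT1 at 28.3%, 17.8% and 17.6% of it. CIDEB and CIDEC were near equal by FPKM in shCtrl, where CIDEC was 51.6% of their sum, and CIDEC was 79.2% in shTRIB3-1 and 76.5% in shTRIB3-2. That equality depends on the lengths behind FPKM, 4082 bases for CIDEB and 1410 for CIDEC, which are 144.7% and 71.9% of their exon bases. In shCtrl replicate 1 CIDEB had 1591 fragments and CIDEC 585. The antisense overlap of CIDEB also limits this share.

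**Figure D3:**
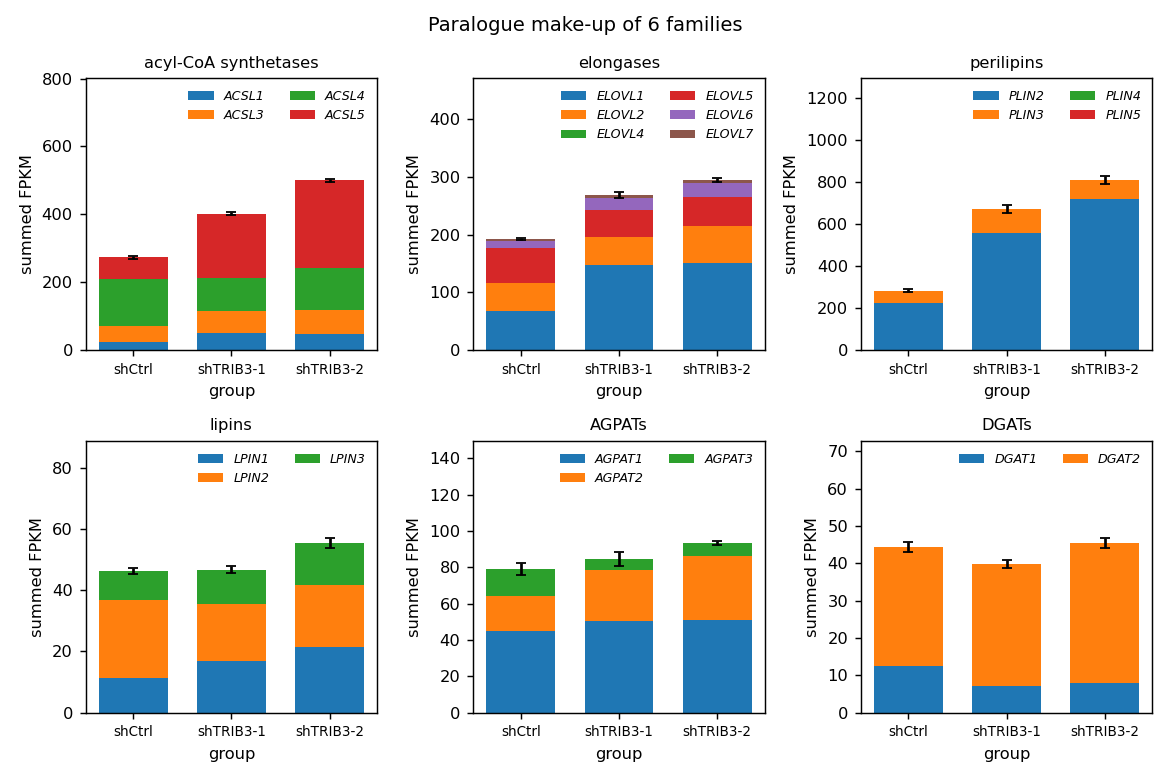
Summed FPKM (y axis, linear from 0) of 6 gene families in shCtrl, shTRIB3-1 and shTRIB3-2 (x axis), stacked by the mean of each paralogue, with bars for the SD of the sum over 3 libraries. The ACSL5 segment goes from 23.7% of the synthetase sum in shCtrl to 51.6% in shTRIB3-2, and the AGPAT3 segment from 18.8% of the summed AGPAT1, AGPAT2 and AGPAT3 to 7.7%.

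The hairpins were then compared with each other, since TRIB3 was lower with shTRIB3-2. No member was called between them by limma, where 0.284% of all tested genes were called higher and 1.79% lower with shTRIB3-2. The largest member difference was 0.46, 30 of 35 had an unadjusted p under 0.05, and a fit on recovered fragments (voom) also called 0 with 31 under that p. The share of all tested genes under that unadjusted p was not worked out, so these counts cannot be read as particular to the members. At an adjusted p under 0.05, 26 members (74.3%) were higher with shTRIB3-2 than with shTRIB3-1 and 3 (8.57%) were lower, against 25.1% and 20.7% of all tested genes. The median difference was 0.23 over members and 0.025 over all tested genes. GPAM (0.46), CIDEB (0.46), ACSL5 (0.46) and FADS2 (0.41) had the largest differences upwards (adjusted p = 5.74e-07, 3.18e-06, 1.19e-07 and 1.65e-05). GPAM thus stood nearer to its control level with shTRIB3-2, while CIDEB, ACSL5 and FADS2 stood farther from it.

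PLIN3 (-0.39, adjusted p = 1.08e-06), PNPLA2 (-0.21, adjusted p = 0.0025) and ACSL1 (-0.13, adjusted p = 0.00298) were the 3 that were lower with shTRIB3-2. The 6 that did not pass were ACACA, ACACB, ELOVL1, ELOVL6, AGPAT1 and MTTP. Of these ELOVL1 (0.04 ± 0.036, adjusted p = 0.369) and MTTP (-0.06 ± 0.044, adjusted p = 0.297) were called against shCtrl with both hairpins. ELOVL6 (0.13) passed without shCtrl replicate 1 (adjusted p = 0.0162). DGAT1 (0.17) failed without shTRIB3-1 replicate 3 or shTRIB3-2 replicate 1 or 3 (adjusted p 0.0502 to 0.126), LPIN2 (0.12) without shTRIB3-1 replicate 1 or 2 or shTRIB3-2 replicate 1 or 3 (0.0543 to 0.0784), and PNPLA3 (0.21) without shTRIB3-1 replicate 2 or shTRIB3-2 replicate 1 (0.0959 to 0.102). The hepatocyte markers ALB (0.39, adjusted p = 7.63e-05) and AFP (0.70, adjusted p = 1.66e-07) were also higher with shTRIB3-2 than with shTRIB3-1. So were TTR (0.63), FGB (0.45), SERPINA1 (0.405), TF (0.25) and APOB (0.21), each at an adjusted p under 0.05. APOA1, the remaining marker on that list, did not pass (0.07, adjusted p = 0.39). The part of these marker shifts in the members' differences was not tested.

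**Figure D4:**
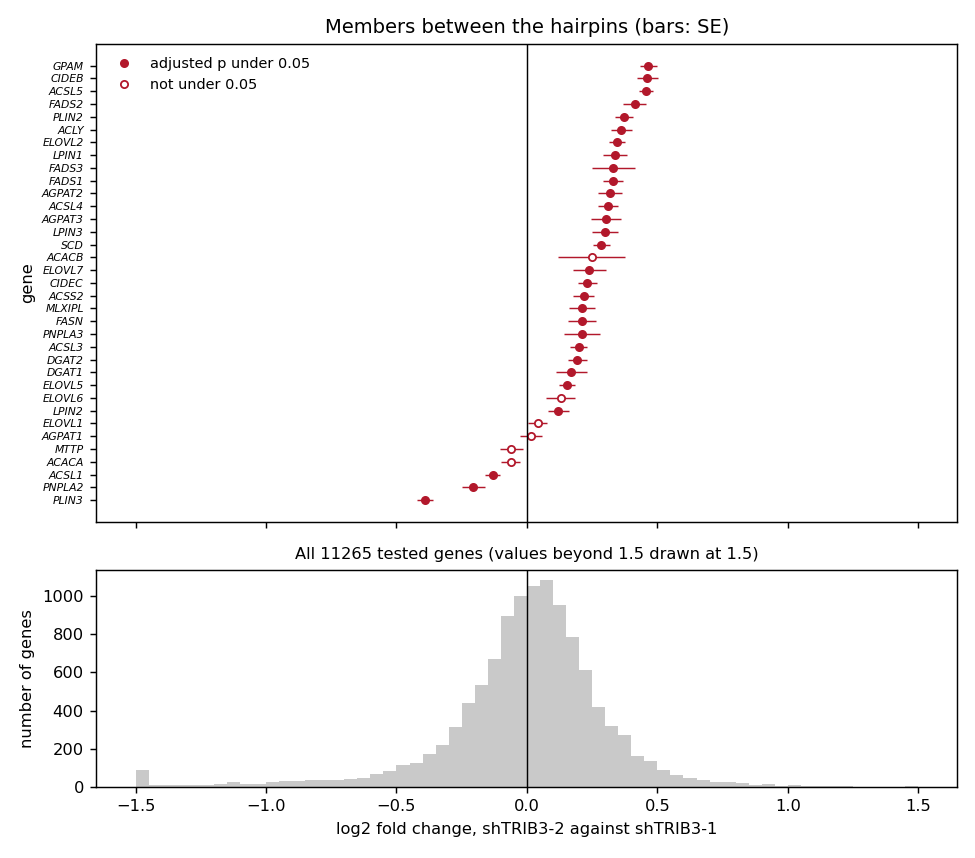
Upper panel, log2 fold change of shTRIB3-2 against shTRIB3-1 (x axis, bars are the standard error) for the 35 tested members (y axis), filled where the adjusted p is under 0.05. Lower panel, the number of all 11265 tested genes (y axis) at each value of the same x axis, with values beyond 1.5 drawn at 1.5. Most members lie right of 0 (median 0.23), and PLIN3 lies farthest left at -0.39.

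Promoter sequences were available for 38 of the 43 members (RefSeq, GRCh38.p14, 250 bases before to 50 after the start of transcription) and were searched on both strands. None was available for FASN, LPIN3, DGAT1, DGAT2 and PNPLA3. Each gene had a single start site and the patterns had to match exactly, so elements elsewhere or with other letters would be missed. They are described because lipogenic genes are classically controlled through the sterol response element bound by SREBP and the E-box, and because the study concerns DNA quadruplexes, which form in guanine-rich DNA. The sterol element TCACNCCAC was in 1 member promoter, that of PNPLA2, which is 2.63% of members, 1.15% of 27305 promoters and 1.1% of the 9088 promoters of tested genes. The E-box CACGTG was in 3, PLIN2 among them, which is 7.89% of members, 7.43% of all promoters and 10.3% of those of tested genes. CCAAT was in 17 members (44.7%), 35.7% of all promoters and 37% of those of tested genes. A quadruplex pattern, 4 runs of GGG or more with 1 to 7 bases between runs on either strand, was in 18 member promoters (47.4%), in 24.1% of all promoters and in 33.7% of those of tested genes. It was in 5 of the 8 members called higher with at least 1 hairpin (ACSS2, ELOVL1, ACSL1, CIDEC and MTTP) and in 0 of the 2 called lower, and these matches describe letters, with no test, and not bound or folded sites. The promoters of PLIN2, CIDEC, MTTP and ACSS2 are printed from 250 bases before to 25 bases after the start, because among called members with an E-box or quadruplex pattern their first match lies nearest to it, with the E-box of PLIN2 and the quadruplex patterns of the others in capitals. They are chr9:19127468-19127742 and chr3:9880229-9880503 on the minus strand, and chr4:99563880-99564154 and chr20:34874739-34875013 on the plus strand. The printed windows of PLIN2 and ACSS2 lie wholly inside the GENCODE spans given above. For these genes the RefSeq start used is therefore not the outermost GENCODE start. The capitals begin 69 bases before the start in PLIN2, 21 in CIDEC, 24 in MTTP and 28 in ACSS2.
PLIN2 promoter: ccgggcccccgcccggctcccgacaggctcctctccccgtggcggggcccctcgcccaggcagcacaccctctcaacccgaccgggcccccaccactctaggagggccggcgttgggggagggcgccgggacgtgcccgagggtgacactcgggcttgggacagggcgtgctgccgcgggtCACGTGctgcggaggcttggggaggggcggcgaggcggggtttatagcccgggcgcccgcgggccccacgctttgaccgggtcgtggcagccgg
CIDEC promoter: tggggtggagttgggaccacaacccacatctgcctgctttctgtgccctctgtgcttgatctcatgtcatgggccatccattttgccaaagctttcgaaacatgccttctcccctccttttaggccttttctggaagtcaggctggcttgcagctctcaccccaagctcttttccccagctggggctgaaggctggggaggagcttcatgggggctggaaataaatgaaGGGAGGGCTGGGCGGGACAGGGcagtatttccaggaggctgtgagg
MTTP promoter: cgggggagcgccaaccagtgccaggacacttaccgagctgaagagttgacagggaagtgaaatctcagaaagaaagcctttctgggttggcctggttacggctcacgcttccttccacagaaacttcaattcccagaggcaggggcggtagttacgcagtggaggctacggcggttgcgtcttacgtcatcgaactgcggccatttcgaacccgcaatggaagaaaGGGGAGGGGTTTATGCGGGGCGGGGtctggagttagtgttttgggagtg
ACSS2 promoter: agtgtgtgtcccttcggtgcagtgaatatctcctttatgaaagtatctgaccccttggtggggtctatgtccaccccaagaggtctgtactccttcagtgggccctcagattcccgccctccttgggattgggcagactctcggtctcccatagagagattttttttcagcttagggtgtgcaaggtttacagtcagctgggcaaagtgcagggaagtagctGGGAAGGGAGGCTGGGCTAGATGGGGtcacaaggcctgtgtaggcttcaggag

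Other genes of the same pathways, from a fixed list, were counted beside the members. Of 45 in the table, 36 were tested, and at an adjusted p under 0.05 with shTRIB3-1 21 were higher (58.3%, against 32.9% of all tested genes) and 13 lower (36.1%, against 41.5%). With shTRIB3-2, 18 were higher (50%, against 35.4%) and 14 lower (38.9%, against 40.5%). With both hairpins 0 were called higher by limma and 2 lower (5.56%), a share near the 4.74% of all tested genes, and these 2 are given as single genes. INSIG2, which holds the SREBP escort SCAP in the endoplasmic reticulum, stood at 33.3, 36.6 and 36.6 FPKM in the shCtrl libraries, 9.76, 11.2 and 11.9 in those of shTRIB3-1 and 16.1, 16.7 and 17 in those of shTRIB3-2. All knockdown libraries lay below the controls, with changes of -1.69 and -1.09 (adjusted p = 3.22e-10 and 1.3e-08). SLC27A2, a very long chain acyl-CoA synthetase and fatty acid transporter, stood at 8.38, 7.46 and 7.84 FPKM in the shCtrl libraries, 3.28, 2.47 and 3.48 in those of shTRIB3-1 and 3.57, 3.15 and 2.88 in those of shTRIB3-2. Its hairpin groups overlapped below the controls, with changes of -1.34 and -1.28 (adjusted p = 4.63e-07 and 6.43e-07). SLC27A4, another transporter named after its values were seen, was called higher with shTRIB3-2 alone (1.00) and changed by 0.86 with shTRIB3-1.

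Their groups differed in direction. The SREBP genes SREBF1 and SREBF2 rose by 0.35 and 0.35 with shTRIB3-1 and by 0.25 and 0.39 with shTRIB3-2 (adjusted p = 1.92e-05, 3.9e-07, 0.000355 and 1.12e-07). Among the partners of the elongases, which complete the cycle that the ELOVL enzymes begin, the reductase HSD17B12 and the dehydratases HACD1, HACD2 and HACD3 rose with both hairpins (changes of 0.21 to 0.63 with shTRIB3-1 and 0.30 to 0.63 with shTRIB3-2) and the last reductase TECR fell (-0.42 and -0.70). Among droplet genes the lipase coactivator ABHD5 rose by 0.81 and 0.82 and lysosomal acid lipase LIPA by 0.40 and 0.71, while FITM2, which helps droplets bud, fell (-0.74 and -0.46). The mitochondrial citrate carrier SLC25A1 and the NADPH-producing IDH1 fell with both hairpins (SLC25A1 -0.30 and -0.58, IDH1 -0.15 and -0.24). These genes passed at an adjusted p under 0.05, and they were picked from the list after their values were seen.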

How the data were processed

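RNA-seq was made from HepG2 cells in 3 groups of 3 libraries, grouped by the labels. The deposited values are FPKM per gene and library, made by the authors; the submitters' processing notes name HTSeq (version not given), R 3.2.0 and GRCh38, and the study's methods name STAR and DESeq2. The annotation release and the strand setting are not given in the sources used here. FPKM steps gave whole fragments (within 0.02) for 100% of 172769 values above 0, which set the totals per library. Genes with FPKM of at least 1 in at least 3 libraries were tested with limma 3.58.1 (R 4.3.3, trend, 2-sided) on log2(FPKM + 0.1) in 1 fit of 3 group means, with Benjamini-Hochberg adjustment over all 11265 tested genes. Changes on this scale understate those of low genes. The fit was tested on simulated data.

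Members and gene lists were chosen with earlier results of these data known. Values in every library are given for members called in any comparison and for the 5 members highest in shCtrl, changes for other tested members, and fragments for those under the filter; of other pathway genes, those called with both hairpins are named, and any further one was chosen after its values were seen. Gene positions came from GENCODE v44, promoters from RefSeq, and hairpin target sequences from the study's own list. Intervals were not computed for counting error. Alternatives were other pseudocounts, filters and scalings, voom on recovered fragments, the replicate number as a block, pairwise fits and leaving out each library. The result for 1 other gene of the pathway list is not reported here.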

Additional observations from a re-analysis of the deposited data

Results flagged for a closer look

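For ACLY and PGD both hairpins differed from shCtrl past the threshold in opposite directions, and the direct limma test between the hairpins also passed, with 3 libraries in each group. ACLY, the citrate-cleaving enzyme, was -0.19 with shTRIB3-1 and 0.17 with shTRIB3-2, a difference of 0.36 between the hairpins (adjusted p = 1.79e-05). Outside the members, PGD, a dehydrogenase that yields NADPH, stood at 146.4, 146.9 and 146.1 FPKM in the shCtrl libraries, 194.6, 192.1 and 186.9 in those of shTRIB3-1 and 139.1, 138.2 and 131.5 in those of shTRIB3-2, with no overlap between groups. It was 0.38 with shTRIB3-1 and -0.10 with shTRIB3-2, a difference of -0.49 (adjusted p = 1.91e-07).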

How the results depend on the processing

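The number of members called was 9 to 12 with shTRIB3-1, 7 to 9 with shTRIB3-2, 7 to 9 with both hairpins and 0 between the hairpins over the alternatives run. The 12 came without the filter on low values, which added PLIN4 and PLIN5. Leaving out each library gave 10 to 10 with shTRIB3-1, 7 to 8 with shTRIB3-2 and 7 to 8 with both, and medians of 0.14 to 0.20, 0.37 to 0.39 and, between the hairpins, 0.20 to 0.25. With quantile normalization the median change with shTRIB3-2 was 0.54 in place of 0.37, and the cause was not tested. On the TPM scale the median of all tested genes with shTRIB3-1 was -0.111. Deviations of same-numbered libraries were little correlated (-0.07 to 0.09), which cannot tell whether these libraries were prepared together. A fit with the replicate number as a block left the counts at 10, 8, 0 and 8. Over 35 members, 19 settings and 1992 values, 1931 kept their direction and side of the adjusted p threshold, 31 no longer passed, 16 newly passed and 14 changed sign, all of changes near 0 that passed in neither fit. With shTRIB3-1 on the TPM scale these were FASN (-0.01), FADS1 (-0.04), ELOVL2 (-0.04) and DGAT2 (-0.01), with median centring PNPLA2 (0.01) and PNPLA3 (0.06), and with quantile normalization FASN (-0.02) and PNPLA3 (0.05). Between the hairpins AGPAT1 was -0.01 with median centring. Leaving out each library gave -0.07 to 0.05 for PNPLA3 and -0.03 to 0.06 for FADS1 with shTRIB3-1, and 0 to 0.05 for AGPAT1 between the hairpins. With 3 libraries a group, the small changes of ACACA and PNPLA3 with shTRIB3-2 and of SCD with shTRIB3-1 fell on either side of the threshold depending on the library left out.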
